A study of Mus musculus with 6 samples.

Results

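Rab genes encode small GTPases that mark the membranes of a cell and direct vesicles from one compartment to the next. Every protein-coding gene of the deposited count table whose symbol is Rab followed by a number, with at most a letter and a further digit, was taken, which gave 59 of 55573 genes. They were split into 4 granule Rabs (Rab27a, Rab27b, Rab32 and Rab38) and 55 other Rabs. The 55 cover general membrane traffic but also hold Rabs of exocytosis, among them the granule-bound Rab3d. RNA-seq had been made from 6 mouse samples that the labels call megakaryocytes, the cells that shed platelets: 3 wild type (WT) and 3 lacking Abcc4 (Abcc4-/-), a membrane pump that exports cyclic nucleotides and nucleotide-type drugs. The labels give no treatment, age or sex, no strain, and nothing on how the Abcc4 allele was made. The sample titles also name CD41, the platelet integrin chain, without saying how it was used. Whether each sample is a different mouse is not stated per sample, so every p-value rests on the spread among these samples, and that spread may be technical.

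A Rab protein works as a switch. It is active with GTP bound, when it recruits effectors such as motors and tethers, and inactive with GDP bound. Exchange factors load GTP, GTPase-activating proteins (GAPs) end the active state, and a chaperone carries the inactive Rab between membranes. Rab27a and Rab27b guide secretory granules to the cell surface, and in platelets Rab27b is known to act in the packing and release of dense granules. Rab32 and Rab38 send cargo to melanosomes and platelet dense granules, organelles that share their assembly with lysosomes. Rab27a also acts in granule release by neutrophils and cytotoxic lymphocytes.

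Rab proteins are anchored in membranes by lipid groups that the cell attaches to cysteines near the end of the protein, so the last codons carry the membrane signal. All 59 coding sequences held at least 1 cysteine codon among the last 4, and 44 held 2 or more. The ends of the coding sequence of members described below are shown to let the cysteine arrangements be compared. They hold the last 10 codons and the stop codon of a GENCODE vM21 transcript (GRCm38), 33 bases written 5′ to 3′, with every cysteine codon in capitals.
Rab27a: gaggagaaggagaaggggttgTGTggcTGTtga
Rab3d: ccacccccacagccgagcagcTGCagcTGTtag
Rab32: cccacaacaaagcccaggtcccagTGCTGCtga
Rab38: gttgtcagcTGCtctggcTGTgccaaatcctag
Rab44: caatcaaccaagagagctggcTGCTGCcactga

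Rab27a and Rab3d, both regulators of secretion, ended with a cysteine codon, another codon and a cysteine codon, as did 20 members in all, Rab27b among them. Rab32 ended with a pair of cysteine codons, like 15 members. Its close relative Rab38 had 1 cysteine codon in the last 4, which 15 members shared, with a further cysteine codon upstream. Rab44 had its pair before a last histidine codon and was 1 of 9 members with another arrangement. Its coding sequence was also far longer, at 725 codons against a median of 215 (194 to 281) for the other 58 members. These arrangements are given as sequence features and were not related to the expression values.

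Library totals ran from 50440239 to 55123512 counts for WT and from 67009925 to 99294493 for Abcc4-/-. A count of 3 equalled 0.0304 to 0.0591 CPM (reads of a gene relative to the TMM-scaled library total). Of the 16493 genes with enough counts to test, 8.68% were lower and 8.61% higher in Abcc4-/- at an adjusted p below 0.05 (edgeR quasi-likelihood test), 17.3% in either direction. Abcc4 itself had 73.9 ± 1.96 CPM in WT and 61.0 ± 1.13 in Abcc4-/- (SD, n = 3; edgeR adjusted p = 0.0026). Which part of the gene the allele lacks is not stated, so this does not check the labels. The 18 megakaryocyte and platelet markers summed to 328 to 397 TPM (a level scaled by transcript length and library total) in WT and 219 to 281 in Abcc4-/-, and 11 of them fell while 1 rose. The 14 neutrophil markers summed to 60210 to 74610 TPM in WT and 108400 to 110900 in Abcc4-/-, with 9 higher and 1 lower. No member of either list was at 0 in all 6 libraries. Neutrophil marker RNA was thus well above megakaryocyte marker RNA in all 6 libraries. In such bulk samples, fewer cells of a type and less RNA per cell cannot be told apart.

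Rab RNA was spread over a wide range of levels, led by housekeeping members. By deposited TPM, the scale on which genes of different length can be compared, 9 members had a mean of at least 100 TPM, 25 lay between 10 and 100, 13 between 1 and 10, and 12 under 1. Rab7, which drives traffic to lysosomes, had the highest mean at 237 TPM. Rab5c of early endosomes followed with 177 TPM, then Rab44 with 172, Rab1b of the route from the endoplasmic reticulum to the Golgi with 154, and the recycling Rabs Rab11a and Rab11b with 147 and 141. Rab1a and the granule Rab27a closed the 8 most abundant at 112 and 106 TPM. Neighbours in this order often lay within their spread: Rab1b had 154 ± 2.12 and 154 ± 5.15 TPM in the 2 groups and Rab11a 152 ± 3.70 and 143 ± 2.28 (WT and Abcc4-/-, SD, n = 3). Of these 8 genes, only Rab44 and Rab27a passed the test between genotypes. Adjusted p (edgeR) was 0.151 for Rab7, 0.209 for Rab5c, 0.351 for Rab1b, 0.780 for Rab11a, 0.778 for Rab11b and 0.587 for Rab1a. The whole family summed to 2660 ± 46.4 TPM in WT and 2604 ± 77.3 TPM in Abcc4-/- (SD, n = 3), a difference smaller than the SD of the Abcc4-/- libraries. Its share of all counts went the other way, with every Abcc4-/- library above every WT library. That share was 0.4223, 0.4172 and 0.4105% in WT and 0.4234, 0.4327 and 0.4332% in Abcc4-/-.

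**Figure D1:**
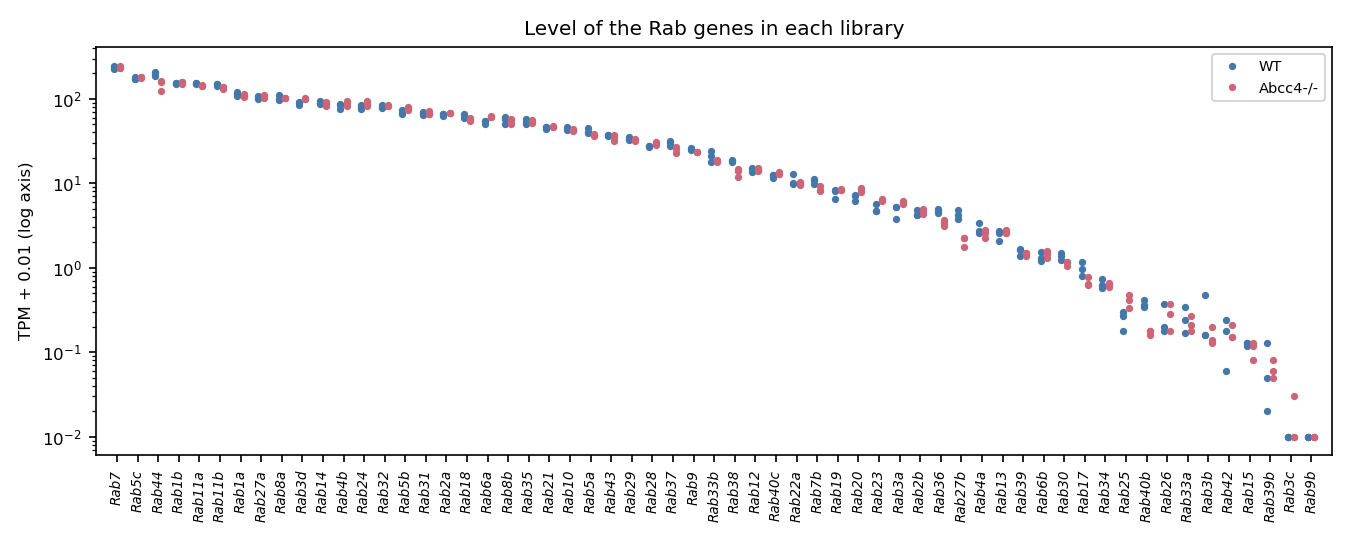
Level of each of the 59 Rab genes in each library in TPM, with the small offset named on the log axis, ordered by the mean over all 6 libraries (blue, WT; red, Abcc4-/-). Rab7 leads at 237 TPM, Rab44 goes from 197 TPM in WT to 148 in Abcc4-/-, and 12 members lie under 1 TPM.

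Among the 4 granule Rabs the changes ran both ways: Rab27b and Rab38 fell, Rab27a rose slightly and Rab32 did not pass. Their median log2 fold change (Abcc4-/- against WT) was -0.14, against 0.09 for the 48 other Rabs tested and 0.00 for all 16493 genes. By TPM, the level of the 4 together was nearly the same in both groups, 208 ± 6.38 TPM in WT and 206 ± 7.24 TPM in Abcc4-/- (SD, n = 3), because Rab27a and Rab32 make up most of it. Their share of all counts was slightly higher in Abcc4-/-: 0.03516, 0.03377 and 0.03401% in WT and 0.03598, 0.03579 and 0.03674% in Abcc4-/-. The 4 took 7.83 ± 0.110% of all Rab TPM in WT and 7.90 ± 0.0740% in Abcc4-/-.

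Rab27b had 9.02, 9.36 and 11.1 CPM in the WT libraries and 4.51, 5.65 and 5.56 CPM in the Abcc4-/- libraries. Every Abcc4-/- library lay below every WT library, with a gap wider than the spread within either group. The fall was 1.87-fold (log2 fold change -0.90, SE 0.11; edgeR adjusted p = 0.000341). It kept its call in all 17 alternative analyses, with log2 fold changes between -1.01 and -0.71. Rab27b (ENSMUSG00000024511.15) spans 69979131 to 70141605 of chromosome 18, minus strand, in GRCm38. Of 18 megakaryocyte and platelet markers, 11 fell, 1 rose and 6 did not pass in the same libraries. Itga2b, which encodes CD41, went from 158 ± 17.3 to 96.1 ± 13.8 CPM (SD, n = 3, edgeR adjusted p = 0.0106). Vwf, an adhesion protein of alpha granules, went from 32.2 ± 4.07 to 13.5 ± 2.29 CPM (adjusted p = 0.0020). Itgb3, the partner chain of CD41, stood at 70.0 ± 4.21 and 72.2 ± 3.51 CPM (adjusted p = 0.652). The part of these markers in the Rab27b result was not tested.

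Rab38 had 18.5, 19.9 and 17.6 CPM in WT and 12.9, 14.8 and 15.4 CPM in Abcc4-/-, again without overlap. It fell by 0.37 on the log2 scale (SE 0.08; edgeR adjusted p = 0.0071) and kept its call in all 17 alternatives. The gene (ENSMUSG00000030559.8) spans 88430273 to 88491572 of chromosome 7, plus strand. Its relative Rab32 had the higher level by TPM (81.9 against 15.9). It had 123, 113 and 112 CPM in WT and 127, 123 and 123 CPM in Abcc4-/-. The Rab32 groups met at the highest WT library, and the difference did not pass (log2 fold change 0.10, SE 0.05; edgeR adjusted p = 0.215). Rab32 (ENSMUSG00000019832.5) spans 10545002 to 10558265 of chromosome 10, minus strand.

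Rab27a, the abundant relative of Rab27b, had 202, 194 and 197 CPM in WT and 220, 217 and 222 CPM in Abcc4-/-. The groups did not overlap and the rise was small, 1.11-fold (log2 fold change 0.15, SE 0.05; edgeR adjusted p = 0.0487). The call was lost in 11 of 17 alternatives. It was lost without any one of the 6 libraries (edgeR adjusted p = 0.0667 to 0.155), with RLE scaling (0.0503) and with no filter on low counts (0.063). The call was also lost on the TPM scales, where the log2 fold change was 0.04 to 0.14. Rab27a (ENSMUSG00000032202.11) spans 73044854 to 73097629 of chromosome 9, plus strand, and a pseudogene that shares 1 of its exons (Gm27186) held 0.0709 to 0.121 CPM. Neutrophil markers, of cells known to use Rab27a, were mostly higher in the same libraries: of 14, 9 rose, 1 fell and 4 did not pass. Among them, S100a8 went from 4646 ± 725 to 8421 ± 355 CPM (SD, n = 3). Of 10 T and NK cell markers, 7 rose and 0 fell, with a median log2 fold change of 0.98, while their summed level overlapped at 190 to 227 TPM in WT and 210 to 223 TPM in Abcc4-/-, and none was at 0 in all 6 libraries. The part of either list in the Rab27a value was not tested.

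The balance within the pair therefore shifted. Rab27b made up 3.49, 3.98 and 4.28% of the summed Rab27a and Rab27b TPM in WT and 1.66, 2.04 and 1.94% in Abcc4-/-. The ratio of Rab27a to Rab27b was 24.7 ± 2.69 in WT and 52.6 ± 5.86 in Abcc4-/- (SD, n = 3; by exact permutation the two-sided p was 0.1, which is the lowest possible with 3 libraries a group). No WT library reached the ratio of any Abcc4-/- library. Rab38 likewise made up 8.85 ± 0.567% of the granule Rab TPM in WT and 6.52 ± 0.552% in Abcc4-/-, while Rab27a went from 50.1 ± 0.653% to 52.3 ± 0.337%.

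**Figure D2:**
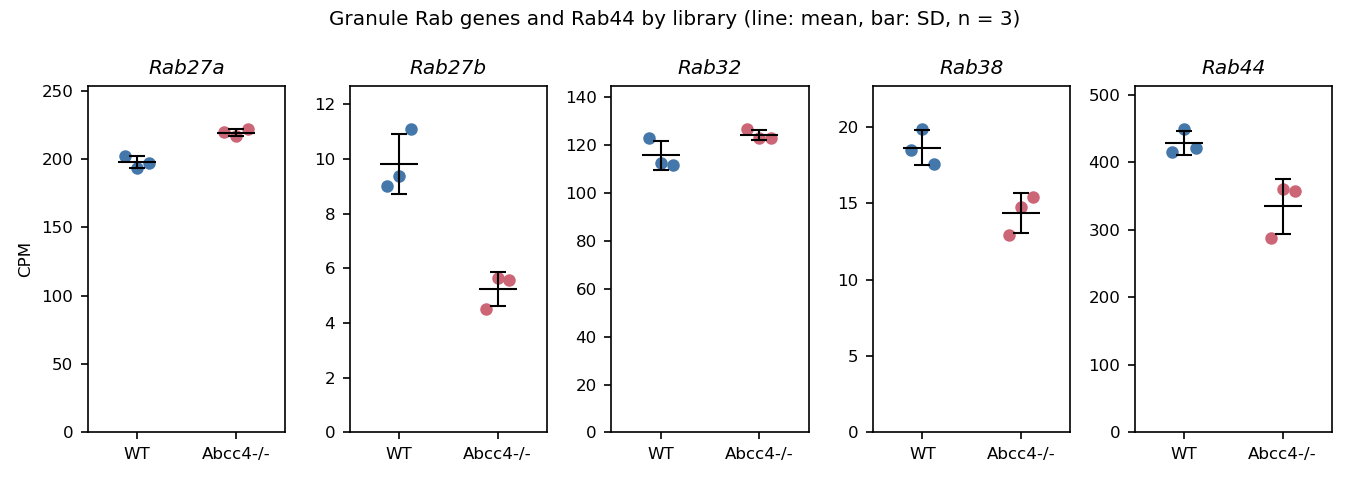
CPM of the 4 granule Rab genes and Rab44 in each library, with the group mean (line) and SD (bar), 3 libraries a group, each panel with its own axis from 0. Rab27b (9.02 to 11.1 CPM in WT, 4.51 to 5.65 in Abcc4-/-), Rab38 and Rab44 are lower in all 3 Abcc4-/- libraries, Rab27a is slightly higher, and Rab32 overlaps.

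Across the family, 6 of the 52 Rab genes tested fell and 9 rose, 15 in all, while 37 did not pass. The shares, 11.5% lower and 17.3% higher, compare with 8.68% and 8.61% of all genes tested, as given above. Without the granule Rabs, 4 of 48 fell and 8 rose. The changes were small: the median absolute log2 fold change of the Rabs was 0.14 against 0.13 for all genes tested, and among called genes 0.28 for Rabs against 0.41 for all genes. A change beyond 1.5-fold was seen in 3 of 52 Rabs (5.77%), Rab27b, Rab40b and Rab23, and in 10.6% of all genes tested. CPM of the groups did not overlap for 30 of 52 Rabs (57.7%), 22 with Abcc4-/- above WT and 8 below, against 36.8% of all genes tested. An unadjusted p below 0.05 (edgeR) was found for 23 of the 52 (44.2%) and for 30.9% of all genes tested.

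The number of upward calls changed with the scaling. On log2(TPM + 1), 5 Rabs were lower and 1 higher, and the median of all genes moved to -0.06 from 0.00. After centring every library on its median, 5 were lower and 5 higher. The same scalings moved the share of higher calls among all called genes from 49.8% to 28.4% and 52.9%. Rab27b, Rab38, Rab36, Rab44 and Rab40b were lower and Rab6a was higher on all 3 TPM scales, whereas Rab27a, Rab21, Rab24 and Rab28, which rose on counts, and Rab7b, which fell, passed on none of them.

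**Figure D3:**
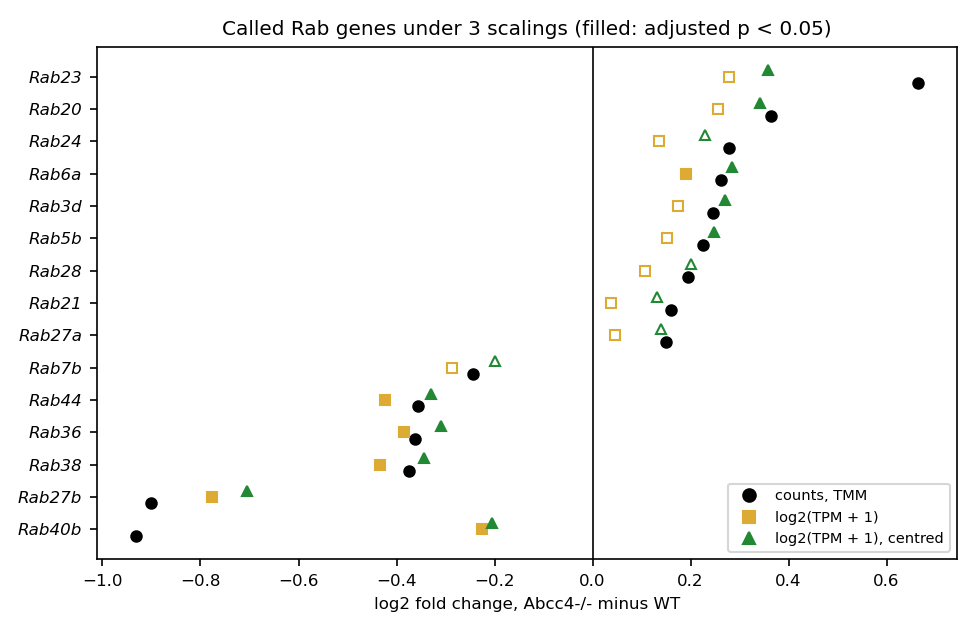
Log2 fold change (Abcc4-/- against WT) of the 15 Rab genes that passed in the count test, on counts scaled by TMM (circles), on log2(TPM + 1) (squares) and on log2(TPM + 1) with each library centred on its median (triangles); filled symbols have an adjusted p below 0.05. The 6 genes that fell stay left of 0 on every scale, and the genes that rose stay right of 0 but mostly lose their filled symbols on log2(TPM + 1).

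**Figure D4:**
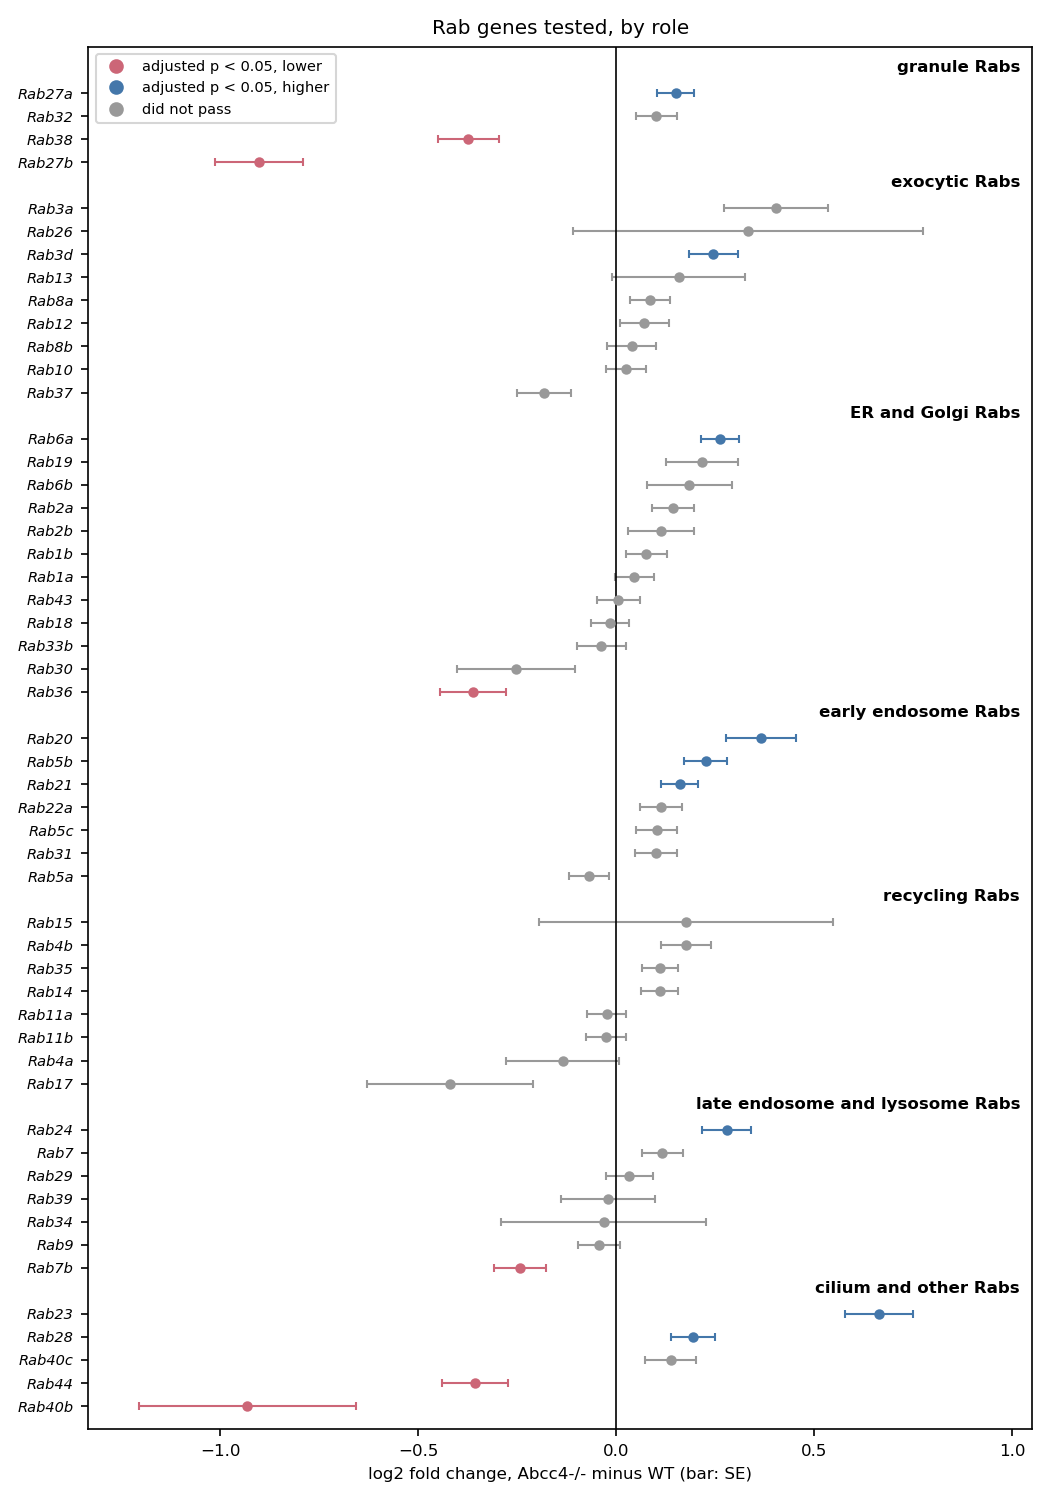
Log2 fold change with its SE (bar) for the 52 Rab genes tested, grouped by the compartment they serve; red, fell; blue, rose; grey, did not pass. Rab27b at -0.90 and Rab23 at 0.66 stand farthest from 0 among genes with short bars, Rab40b at -0.93 has a long bar, and the recycling Rabs hold no coloured point.

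Rabs of exocytosis carry vesicles to the surface. Of 11 members, 9 were tested, and Rab3d alone passed. Rab3d, a granule-bound Rab of secretory cells, had 217, 199 and 185 CPM in WT and 241, 241 and 231 in Abcc4-/-, without overlap, a rise of 1.19-fold (log2 fold change 0.25, SE 0.06; edgeR adjusted p = 0.0184). It lost the call when WT replicate 2, Abcc4-/- replicate 1 or Abcc4-/- replicate 2 was left out (adjusted p = 0.0510 to 0.0721) and on log2(TPM + 1) (0.0505). The other 8 tested ranged from -0.18 to 0.40 on the log2 scale.

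The Rabs of the endoplasmic reticulum and Golgi numbered 13, of which 12 were tested. Rab6a, which organises traffic at the Golgi and to the plasma membrane, had 113, 106 and 108 CPM in WT and 132, 130 and 129 CPM in Abcc4-/-. The 3 Abcc4-/- values lay close together and above all WT values, a rise of 1.20-fold (log2 fold change 0.26, SE 0.05; edgeR adjusted p = 0.0035) that was called in all 17 alternatives. Rab36, a Golgi-associated Rab linked to late endosome positioning, went the other way with 9.50, 8.73 and 9.65 CPM in WT and 6.67, 7.59 and 7.41 in Abcc4-/-. This was a fall of 1.29-fold (log2 fold change -0.36, SE 0.08; edgeR adjusted p = 0.0130), at the threshold without Abcc4-/- replicate 1 (adjusted p = 0.05002). The 10 others tested lay between -0.25 and 0.22. Among them was Rab43, whose exons are shared with the gene model Gm45140 (37.5 to 45.6 CPM), so that its reads may be split between both.

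Early endosome Rabs receive material taken up at the cell surface, and 3 of 7 rose while 0 fell. The share that rose, 42.9% of only 7 genes, compares with 17.3% of all Rabs tested and 8.61% of all genes tested. None of the 3 passed on log2(TPM + 1). Rab5b, one of the Rab5 paralogues that fuse early endosomes, had 161, 147 and 144 CPM in WT and 174, 176 and 178 in Abcc4-/- (1.17-fold higher, log2 fold change 0.23, SE 0.05; edgeR adjusted p = 0.0147). Its paralogues did not pass, with Rab5c at 0.10 and Rab5a at -0.07 on the log2 scale. Rab20, known from macrophage phagosomes, had 5.55, 6.46 and 6.06 CPM in WT and 7.91, 7.41 and 7.98 in Abcc4-/- (1.29-fold, log2 fold change 0.37, SE 0.09; edgeR adjusted p = 0.0162). Rab21, which binds integrins on their way through endosomes, had 128, 135 and 131 CPM in WT and 148, 147 and 145 in Abcc4-/- (1.12-fold, log2 fold change 0.16, SE 0.05; edgeR adjusted p = 0.0356). The groups of all 3 genes were apart. Rab21 was not called when any library other than WT replicate 2 was left out (adjusted p = 0.0511 to 0.121), Rab20 when WT replicate 1, Abcc4-/- replicate 1 or Abcc4-/- replicate 3 was left out (0.0555 to 0.0583), and Rab5b without Abcc4-/- replicate 2 (0.0553). Rab20 and Rab5b also lost their calls on both uncentred TPM scales (adjusted p = 0.0711 to 0.106).

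Recycling Rabs return receptors to the surface. None of the 8 tested passed (of 9 members), and their log2 fold changes ran from -0.42 to 0.18. Of these 8, Rab4b, which directs fast recycling from early endosomes, had the smallest p: it had 60.6, 62.0 and 52.9 CPM in WT and 63.7, 67.0 and 67.5 CPM in Abcc4-/- (log2 fold change 0.18, SE 0.06; edgeR adjusted p = 0.0810). It passed when no filter on low counts was used (adjusted p = 0.0263).

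Of 10 late endosome and lysosome Rabs, 7 were tested, and the calls went both ways. Rab24, linked to autophagy, had 56.3, 60.4 and 51.6 CPM in WT and 66.1, 67.0 and 71.1 in Abcc4-/-, a rise of 1.21-fold (log2 fold change 0.28, SE 0.06; edgeR adjusted p = 0.0105) without overlap. It was called whichever library was left out, but on none of the TPM scales (adjusted p = 0.0678 to 0.189). Rab7b, which moves cargo from late endosomes back to the Golgi, had 18.5, 20.0 and 19.1 CPM in WT and 15.7, 15.6 and 17.3 in Abcc4-/-. It fell 1.18-fold (log2 fold change -0.24, SE 0.07; edgeR adjusted p = 0.0243). The call was lost when WT replicate 2, Abcc4-/- replicate 1 or Abcc4-/- replicate 2 was left out (adjusted p = 0.0768 to 0.110), on all 3 TPM scales (0.0542 to 0.0970) and after thinning to the smallest library (0.0535). Rab7 itself, the lysosomal Rab with the highest level, was at 0.12 and did not pass.

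Of the remaining 5 Rabs, of cilia and other functions, 2 fell and 2 rose. Rab44 is an unusually large Rab with an EF-hand region that is known from immune and mast cells. It had 416, 449 and 421 CPM in WT and 287, 360 and 357 in Abcc4-/-, so that the highest Abcc4-/- library stayed below the lowest WT library. It fell 1.28-fold (log2 fold change -0.36, SE 0.08; edgeR adjusted p = 0.0157). By TPM it went from 197 ± 10.8 to 148 ± 20.6, and from 7.42 ± 0.452% to 5.66 ± 0.643% of all Rab TPM (SD, n = 3). It missed the threshold without WT replicate 2 or 3 (adjusted p = 0.0580 to 0.0590). Mast cell and basophil markers were in part lower in the same libraries: 3 of 8 tested fell and 0 rose, with a list sum of 3106 to 3929 TPM in WT and 2481 to 3084 in Abcc4-/-. For 7 eosinophil markers the sum was 1442 to 1516 TPM and 706 to 1097 TPM, with 3 lower and 0 higher. No member of either list was at 0 in all 6 libraries, and their part in the Rab44 result was not tested.

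Rab23, a brake on Hedgehog signalling in development, rose by the largest amount of the family. It had 6.91, 6.52 and 5.84 CPM in WT and 9.79, 10.1 and 10.6 in Abcc4-/-, with a wide gap between groups (1.58-fold, log2 fold change 0.66, SE 0.09; edgeR adjusted p = 0.000467). It was called whichever library was left out and lost its call only on log2(TPM + 1) and log2(TPM + 0.1) (adjusted p = 0.0753 and 0.0750). By TPM the difference was smaller, 5.06 ± 0.583 in WT against 6.32 ± 0.145 in Abcc4-/- (SD, n = 3). Rab28, a ciliary Rab of photoreceptors, had 28.9, 29.5 and 26.8 CPM in WT and 33.4, 31.6 and 32.5 in Abcc4-/- (1.14-fold, log2 fold change 0.19, SE 0.06; edgeR adjusted p = 0.0365). It passed with WT replicate 2 left out and with no other library left out (0.0684 to 0.113).

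Rab40b, whose protein joins a ubiquitin ligase, was near the detection limit. It had 0.437, 0.374 and 0.386 CPM in WT and 0.226, 0.193 and 0.210 in Abcc4-/-, from 24, 19 and 21 and from 15, 19 and 17 counts. The raw counts met at 19 and the CPM did not overlap; the Abcc4-/- libraries were deeper. The fall of 1.91-fold (log2 fold change -0.93, SE 0.27; edgeR adjusted p = 0.0376) was lost without any single library (adjusted p = 0.0661 to 0.129), with DESeq2 (0.160) and after thinning all libraries to the smallest (0.0946). The 7 members with too few counts to test were Rab33a, Rab3b, Rab3c, Rab39b, Rab42, Rab9b and Rab25, none above 16 counts or 0.47 TPM in any library.

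The genes that load, stop, carry and read Rab proteins moved in both directions. Of 106 in 6 lists, 101 were tested: 15 fell (14.9%, against 8.68% of all genes tested) and 9 rose (8.91% against 8.61%), with a median log2 fold change of -0.01. Effectors of endosomal Rabs went down rather than up, with 7 of 28 lower and 0 higher. Rilpl2, a partner of phosphorylated Rabs and of myosin, fell 1.73-fold from 79.5 ± 7.57 to 46.0 ± 2.85 CPM (SD, n = 3; edgeR adjusted p = 5.7e-05). Micall2, a partner of Rab13 at cell junctions, fell 1.45-fold from 17.5 ± 1.21 to 12.1 ± 1.29 CPM (adjusted p = 0.0017). Rab11fip5, an effector of Rab11, fell 1.23-fold from 42.9 ± 2.49 to 34.7 ± 2.92 CPM (adjusted p = 0.0118). All 3 kept their calls in all 17 alternatives.

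Among 8 tested effectors of Rab27 and Rab3, 2 fell and 1 rose, all at low levels. Mlph, the melanosome linker between Rab27a and myosin, fell from 0.613 ± 0.0425 to 0.266 ± 0.0399 CPM (SD, n = 3; edgeR adjusted p = 0.0068). It was called whichever library was left out, but not on log2(TPM + 1), uncentred or centred (limma adjusted p = 0.0591 and 0.0791). Sytl4, the granule tether granuphilin, fell from 2.86 ± 0.125 to 2.12 ± 0.0563 CPM (adjusted p = 0.0318), and lost its call without any 1 library (0.0529 to 0.104). The Sytl4 call was also lost with no filter on low counts and after thinning (edgeR adjusted p = 0.0592 and 0.0655). It was lost on log2(TPM + 0.1) and centred log2(TPM + 1) as well (limma adjusted p = 0.0675 and 0.0879). Rph3a, a Rab3 effector, rose from 0.250 ± 0.0995 to 0.540 ± 0.0290 CPM (adjusted p = 0.0278). It lost its call without WT replicate 2 or 3 or Abcc4-/- replicate 1 or 2 (0.0640 to 0.0852). The Rph3a call was also lost with DESeq2 (0.0631), after thinning (edgeR adjusted p = 0.0864) and on every TPM scale (limma adjusted p = 0.0892 to 0.134). Of the 13 exchange factors, GAPs and partners of granule Rabs, 2 rose and 0 fell. Tbc1d10c, of a GAP family that acts on Rab27a and Rab35, rose from 75.9 ± 3.00 to 95.3 ± 5.83 CPM (adjusted p = 0.0028). Lrrk2, a kinase that phosphorylates Rabs, rose from 120 ± 7.57 to 140 ± 7.29 CPM (0.0264), and lost its call when WT replicate 2, Abcc4-/- replicate 2 or Abcc4-/- replicate 3 was left out (0.0875 to 0.0985).

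Among 8 genes that prenylate and carry Rabs, 2 rose and 0 fell. Rabif, which holds nucleotide-free Rabs, rose from 35.7 ± 0.944 to 40.8 ± 0.991 CPM (SD, n = 3; edgeR adjusted p = 0.0233). Of the 6 fits with 1 library left out, it was called only in the one without WT replicate 3 (adjusted p = 0.0508 to 0.0974 in the others). Of 15 DENN domain exchange factors 1 fell and 2 rose. Dennd3 rose from 49.9 ± 1.64 to 62.0 ± 5.50 CPM and Dennd2d from 35.8 ± 1.14 to 40.3 ± 0.440 CPM, and Dennd1a fell from 62.7 ± 2.14 to 52.4 ± 3.55 CPM (adjusted p = 0.0077, 0.0362 and 0.0120). Of the 6 fits with 1 library left out, Dennd2d passed only in the one without WT replicate 2; in the others it missed the threshold (0.0640 to 0.114). Of 29 TBC domain GAPs, 5 fell and 2 rose. Tbc1d9 fell from 29.3 ± 0.0590 to 20.4 ± 1.56 CPM, Tbc1d5 fell from 77.9 ± 4.84 to 63.3 ± 2.57 CPM, and Tbc1d20, a GAP for Rab1, rose from 91.0 ± 1.78 to 108 ± 2.46 CPM (adjusted p = 0.000286, 0.0049 and 0.0048). On log2(TPM + 1) the rises of Dennd3, Dennd2d, Rabif and Tbc1d20 no longer passed (adjusted p = 0.0906 to 0.294).

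The stretches upstream of the Rab genes, which the choice of members did not use, varied widely in base composition, with a median richer in G and C than that of all genes. RefSeq promoter windows (GRCm38.p6) matched 48 members with 60 start sites, and the 250 bases before each start were read. Their GC content ran from 31.6% to 80.8%, with a median of 60.2% against 52.4% for all 32851 windows. The letters TGACG, the core of a cyclic AMP response element, were found on either strand in 40.0% of the Rab windows and in 17.8% of all windows. The GC box GGGCGG was in 66.7% and 32.7%, and the RUNX letters TGTGGTT in 3.33% and 4.40%. Windows rich in G and C hold G- and C-rich letters more often, and no set of windows matched on composition was compared. TGACG was present in windows of 6 of the 9 members that rose and of 16 of the 31 windowed members that did not pass. Of the 6 members that fell, 1 had a window (Rab40b), without TGACG. The RUNX letters were in windows of 2 members, Rab27a and Rab28, which both rose but lost their calls in 11 and 8 of 17 alternatives. The E-box CACGTG was in windows of 4 of the 9 members that rose and of 1 of the 31 that did not pass. No split of a motif by call was tested. Rab27a has another window, at chr9:73063898-73064147 on the plus strand, which holds TGACG and no RUNX letters. The Rab27a window printed here has the RUNX letters, in capitals, and no TGACG. It is shown because Rab27a is the granule Rab that rose. It lies at chr9:73044560-73044809 on the plus strand, before the annotated start of the gene.
Rab27a upstream: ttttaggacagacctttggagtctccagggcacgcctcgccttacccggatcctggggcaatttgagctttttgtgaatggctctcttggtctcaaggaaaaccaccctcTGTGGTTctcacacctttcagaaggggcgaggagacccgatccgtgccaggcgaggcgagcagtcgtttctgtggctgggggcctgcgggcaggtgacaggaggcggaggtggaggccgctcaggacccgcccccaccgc

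A match of letters describes the sequence and is not a measured binding site. The other motifs searched were each in under 10% of the Rab windows, some more and some less often than in all windows. The E-box CACGTG was in 8.33% of the Rab windows and 6.02% of all windows, the M-box TCATGTG in 5.0% and 3.25%, and the whole palindromic cyclic AMP response element in 3.33% and 1.55%. The NF-kB motif was in 5.0% and 7.25%, the GATA letters AGATAA in 3.33% and 9.99%, the ETS letters CCGGAAG in 5.0% and 6.91%, the AP-1 letters TGANTCA in 3.33% and 6.75%, and the C/EBP motif in 6.67% and 9.56%. With 60 windows these shares rest on 2 to 5 windows each.

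Processed pseudogenes of abundant members can share reads with them. Rab11b-ps2 held 10.1 to 11.4 CPM and Rab7-ps1 6.58 to 7.79 CPM over the 6 libraries, against means of 178 to 181 CPM for Rab11b and 324 to 351 CPM for Rab7, and Rab5a-ps and Rab9b-ps1 held 0. Rab2b is the only member on chromosome 14, which carries Abcc4. It lies 66.2 Mb from Abcc4 and did not pass (log2 fold change 0.11; edgeR adjusted p = 0.399).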

How the data were processed

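RNA-seq from 3 WT and 3 Abcc4-/- samples was analysed. Reads had been aligned and quantified on mm10; the submitters' processing notes name STAR 2.7 and RSEM 1.3.1. The authors deposited expected counts per gene, not normalized, and TPM, scaled within each sample. Rows of 92 spike-ins, all at 0, were left out. Groups came from the genotype label. Expected counts were rounded and tested in R 4.3.3 with edgeR 4.0.16: TMM scaling, the default filter on low counts, the robust quasi-likelihood test, and Benjamini-Hochberg adjustment over all 16493 genes tested; an adjusted p below 0.05 was called. CPM used TMM library sizes. SE is the log2 fold change over the root of its F statistic. Any pair of libraries within a group differed by more than sampling noise (chi-square over its degrees of freedom, 11.5 or more). The floor of 3 counts covers counting error only.

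The members, the role, regulator and marker lists and the tests were chosen with earlier results of these data known. Named genes were the 4 granule Rabs, every other member called, the 8 members with the highest mean TPM, the member of smallest p in a role without a call, and up to 3 called genes per regulator list. A gene that this rule names is not reported here. Other Rabs and markers were named after their values were seen. Each member had 1 role. Alternatives were other scalings (RLE, upper quartile), DESeq2 1.42.0, limma-voom (limma 3.58.1), other filters, thinning, log2 TPM with a pseudocount of 1 or 0.1 (which understates changes of low genes), the replicate number as a block, and each library left out. Centred log2(TPM + 1) was added after seeing the data. The test was checked on simulated counts with changes of 1.5-fold or more, so the check does not cover the smaller changes called here. Positions and coding sequences are from GENCODE vM21 (GRCm38) and promoter windows from RefSeq (GRCm38.p6).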

Additional observations from a re-analysis of the deposited data

How the results depend on the processing

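Rab27b, Rab38 and Rab6a were called in the same direction in all 17 alternatives. The count of Rab genes higher was 9 on TMM counts, 1 on log2(TPM + 1), 2 on log2(TPM + 0.1) and 5 on centred log2(TPM + 1). Regulators and effectors higher were 9, with 2 on both uncentred TPM scales, and those lower were 15, with 7 on centred TPM. All genes higher were 1420, with 599 on log2(TPM + 1) and 602 on log2(TPM + 0.1), and all genes lower were 1432, with 906 on centred TPM. The share of higher calls was 49.8% on counts, 28.4% and 27.9% on the uncentred TPM scales and 52.9% when centred. The cause was not tested. The median of the 48 other Rabs was 0.09 on counts, -0.01 and -0.02 on the uncentred TPM scales and 0.06 when centred; that of the granule Rabs was -0.14, then -0.20 and -0.22 uncentred.

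With 1 library left out, Rab genes lower numbered 3 to 5 and higher 4 to 8, regulators lower 10 to 13 and higher 3 to 9, and all genes lower 926 to 1260 and higher 809 to 1233, each with fewer samples. The lowest Rab counts came without WT replicate 2 (3 lower) and Abcc4-/- replicate 1 (3 lower, 4 higher) or 2 (4 higher). With the replicate block, 6 Rab genes were lower and 10 higher (all genes 1629 and 1528). Rab40b was lost under it (adjusted p = 0.0546). Same-numbered samples did not deviate together (r = -0.046, -0.026 and -0.014). With 3 libraries a group, these values cannot decide whether the numbers pair the samples. Depth limits the 12 members under 1 TPM.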
